A study of Homo sapiens with 25 samples.

Results

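The 96 genes described here are the protein-coding genes whose symbol begins with KCN, out of 20033 protein-coding genes with a position on chromosomes 1 to 22, X or Y of GRCh38. They encode the pore-forming subunits of potassium channels and many of the subunits that assemble with them. By the names of their subfamilies, 40 are voltage-gated, 16 are inward rectifiers, 15 are two-pore-domain leak channels, 8 are opened by calcium or sodium, and 17 are accessory or other KCN-named genes. The members were found by symbol alone, but the family was chosen with earlier results of these data known.

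Histone marks were profiled by chromatin immunoprecipitation with sequencing in H1 cells, an established human embryonic stem cell line, along a directed differentiation. The stages were undifferentiated cells (hESC), then definitive endoderm (hDE), endoderm of the anterior foregut (hAFE) and, last, endoderm of the pharyngeal foregut (hPFE). Every stage derives from the same line, with no genetic change or other treatment given in the labels. Of 25 samples, 21 were immunoprecipitations with a peak list, and the other 4 were inputs, 1 per stage, that served as the authors' controls. H3K27ac had 2 libraries at each stage, H3K27me3 had 2 except in hAFE (replicate 2 alone), and H3K4me2 had 2 in hESC and hDE and 1 in hAFE and hPFE.

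Potassium channels let potassium ions cross the membrane and so set the resting potential and end action potentials, which makes many of them characteristic of neurons, heart and muscle. In embryonic stem cells, genes kept silent for later use often carry H3K27me3, deposited by Polycomb repressive complex 2, together with H3K4 methylation, a state called bivalent. H3K27ac is found at active promoters and enhancers, and the same lysine cannot carry both acetylation and methylation on one histone tail.

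Marked, for a gene at a stage, means that all libraries there had a peak no more than 1 kb from an annotated end of the gene, and unmarked that no library did. A gene gained a mark when it went from unmarked to marked between stages, and lost it in the reverse case. The peaks and their fold enrichment over input are the authors' own values, and each value printed for a gene and library belongs to the strongest peak at its ends. These values describe a peak within its own list and were not compared between lists. With at most 2 libraries of a mark per stage no test across libraries was made, and the share of all protein-coding genes with the same call stands beside each count as the background.

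The promoters of 8 members are shown here because the losses and gains described below turn on them, each as 300 bases in RefSeq's GRCh38.p14 from 250 bases before to 50 after the outermost start, 5′ to 3′ along the gene's strand, with CpG dinucleotides in capitals. CpG-rich promoters are the usual sites of Polycomb marks in stem cells. KCNJ8, KCNT1, KCNH2 and KCNJ2 lost H3K27me3 in a contrast, KCNF1 and KCNJ5 gained H3K27ac in hDE, and KCNJ16 and KCNK5, chosen after their values were seen, are the neighbour of KCNJ2 and a gene that lost H3K27ac and gained H3K27me3.
KCNJ8: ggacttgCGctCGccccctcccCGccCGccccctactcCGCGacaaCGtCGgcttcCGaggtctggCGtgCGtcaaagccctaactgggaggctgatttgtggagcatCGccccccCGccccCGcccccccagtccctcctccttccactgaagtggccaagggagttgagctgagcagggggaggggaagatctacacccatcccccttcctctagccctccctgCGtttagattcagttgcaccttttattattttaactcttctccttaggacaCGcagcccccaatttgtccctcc
KCNT1: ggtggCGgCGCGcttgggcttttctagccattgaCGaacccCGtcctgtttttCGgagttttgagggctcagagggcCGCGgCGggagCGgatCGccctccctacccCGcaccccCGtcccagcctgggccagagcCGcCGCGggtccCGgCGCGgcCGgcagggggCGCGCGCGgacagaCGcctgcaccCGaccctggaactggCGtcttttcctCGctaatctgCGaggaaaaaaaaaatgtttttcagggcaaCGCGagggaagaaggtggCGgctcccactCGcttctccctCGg
KCNH2: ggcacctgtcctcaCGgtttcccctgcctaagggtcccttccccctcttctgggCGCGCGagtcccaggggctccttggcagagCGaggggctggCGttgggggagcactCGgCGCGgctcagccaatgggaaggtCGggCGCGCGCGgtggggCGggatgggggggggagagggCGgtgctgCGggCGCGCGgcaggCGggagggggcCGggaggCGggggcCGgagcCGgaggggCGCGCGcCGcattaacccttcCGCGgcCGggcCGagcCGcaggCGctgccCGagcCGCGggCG
KCNJ2: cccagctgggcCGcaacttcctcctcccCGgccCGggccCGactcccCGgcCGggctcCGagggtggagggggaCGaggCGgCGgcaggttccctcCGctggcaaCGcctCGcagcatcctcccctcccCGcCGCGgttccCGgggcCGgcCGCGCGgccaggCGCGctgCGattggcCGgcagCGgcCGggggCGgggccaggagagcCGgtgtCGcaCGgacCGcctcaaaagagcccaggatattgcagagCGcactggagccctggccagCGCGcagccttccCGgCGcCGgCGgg
KCNF1: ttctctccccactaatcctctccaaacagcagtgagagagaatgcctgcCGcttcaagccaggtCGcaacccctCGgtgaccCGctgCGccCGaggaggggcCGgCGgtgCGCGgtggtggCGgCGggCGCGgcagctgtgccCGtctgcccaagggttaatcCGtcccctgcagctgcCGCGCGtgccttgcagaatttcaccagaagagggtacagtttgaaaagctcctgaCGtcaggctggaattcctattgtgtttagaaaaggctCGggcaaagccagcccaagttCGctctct
KCNJ5: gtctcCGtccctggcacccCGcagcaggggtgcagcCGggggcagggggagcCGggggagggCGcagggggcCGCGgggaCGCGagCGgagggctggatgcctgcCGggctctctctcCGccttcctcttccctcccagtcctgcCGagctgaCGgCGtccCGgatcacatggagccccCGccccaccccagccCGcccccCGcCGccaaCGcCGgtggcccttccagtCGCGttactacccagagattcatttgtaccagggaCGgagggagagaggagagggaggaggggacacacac
KCNJ16: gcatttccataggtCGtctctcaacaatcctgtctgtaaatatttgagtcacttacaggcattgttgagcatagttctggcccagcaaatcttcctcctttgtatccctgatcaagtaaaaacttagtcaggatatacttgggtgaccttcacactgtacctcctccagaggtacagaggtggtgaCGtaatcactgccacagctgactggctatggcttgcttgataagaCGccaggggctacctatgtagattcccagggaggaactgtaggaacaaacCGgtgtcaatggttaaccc
KCNK5: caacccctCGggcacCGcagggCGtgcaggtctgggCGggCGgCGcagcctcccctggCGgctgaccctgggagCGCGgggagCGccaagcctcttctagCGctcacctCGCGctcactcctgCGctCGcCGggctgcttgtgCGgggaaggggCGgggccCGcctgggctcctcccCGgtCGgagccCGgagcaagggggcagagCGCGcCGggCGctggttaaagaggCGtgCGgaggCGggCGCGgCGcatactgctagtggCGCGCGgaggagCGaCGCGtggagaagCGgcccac
These windows lie on chr12:21774657-21774956 (KCNJ8, minus strand), chr9:135701935-135702234 (KCNT1, plus), chr7:150978272-150978571 (KCNH2, minus) and chr17:70169282-70169581 (KCNJ2, plus). The others lie on chr2:10911684-10911983 (KCNF1, plus), chr11:128891106-128891405 (KCNJ5, plus), chr17:70074975-70075274 (KCNJ16, plus) and chr6:39229426-39229725 (KCNK5, minus). They hold 16 CpG in KCNJ8, 34 in KCNT1, 39 in KCNH2, 39 in KCNJ2, 22 in KCNF1, 25 in KCNJ5, 4 in KCNJ16 and 39 in KCNK5. The motif searched was CG, which reads the same on both strands. At least 1 CG stood in 98.2% of 13818 promoters of the same length, at least 10 in 73.4% and at least 20 in 56.2%. Among the 65 members with a promoter in the table, 66.2% held at least 10 and 47.7% at least 20. KCNJ16 therefore has fewer CpG than most promoters, and the other 7 have 16 or more. Only 35 of the 54 members that were bivalent in hESC had a sequence (64.8%), too few for a check of CpG content over that set, which is therefore void.

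The KCN genes carried H3K27me3 far more often, and H3K27ac far less often, than protein-coding genes in general. H3K27me3 marked 54 of the 96 in hESC (56.2%), then 44 in hDE (45.8%), 58 in hAFE (60.4%) and 55 in hPFE (57.3%). The background over all protein-coding genes was 19.2% at the first stage, 13.4% in hDE, 15.5% in hAFE and 12.7% in hPFE. H3K27ac marked 8 members in hESC (8.33%), then 17 in hDE (17.7%), 4 in hAFE (4.17%) and 10 in hPFE (10.4%), against 42.9%, 54%, 34.2% and 50.2% of all genes in the same order. H3K4me2 was close to the background, with 76 marked members in hESC (79.2%), 68 in hDE (70.8%) and 70 each in hAFE and hPFE (72.9%), against 72.3%, 68%, 70.2% and 70.1% of all genes.

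In each library the share of members was above that of all genes for H3K27me3 and below it for H3K27ac, whereas the order of the stages varied with the library. H3K27me3 peaks stood at 54 and 56 members in the hESC libraries, 46 and 56 in hDE, 58 in hAFE, and 55 and 62 in hPFE, in the order replicate 1 then 2. H3K27ac peaks stood at 12 and 17 members in hESC, 20 and 23 in hDE, 13 and 4 in hAFE, and 19 and 19 in hPFE. Of the members with a peak in either library of a stage, the share with a peak in both ran from 0.759 to 0.964 for H3K27me3 over 3 stages and from 0.308 to 0.654 for H3K27ac over 4. Over all genes it ran from 0.6 to 0.712 for H3K27me3 and from 0.678 to 0.892 for H3K27ac, so replicates overlapped more for H3K27me3 among the members and more for H3K27ac among all genes. Between libraries of different stages the members' share ran from 0.656 to 0.883 for H3K27me3 and from 0.125 to 0.48 for H3K27ac. Counts of H3K27ac members at a stage therefore moved with the rule. Leaving out hESC replicate 1 raised 8 to 17, leaving out hAFE replicate 2 raised 4 to 13, and leaving out either hPFE library raised 10 to 19. By construction such counts can only stay or rise when a library is left out, because a marked gene needs a peak in every library.

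**Figure D1:**
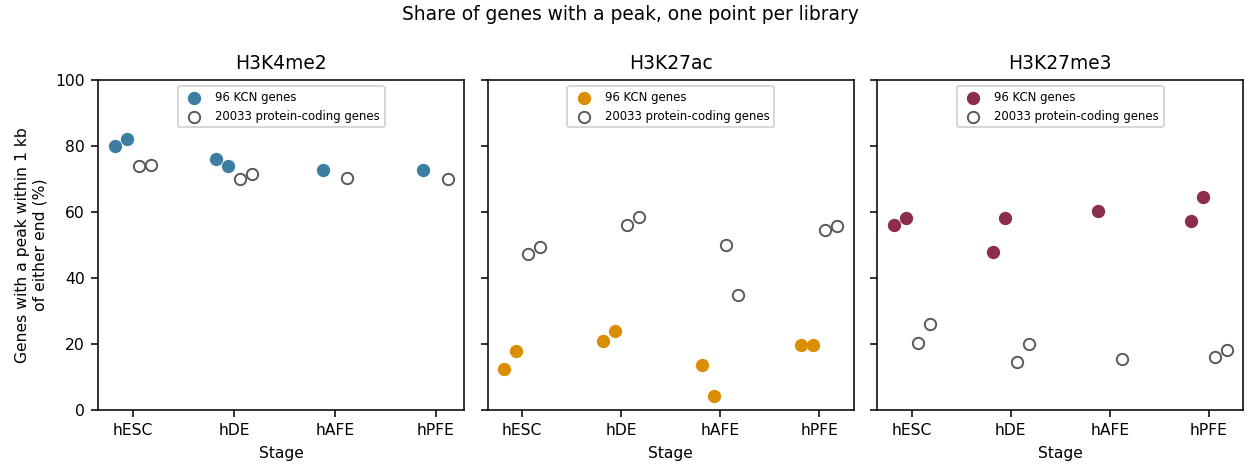
Share of genes with a peak within 1 kb of either end (y axis, percent) by stage (x axis), 1 point per library, for H3K4me2, H3K27ac and H3K27me3; filled points are the 96 KCN genes and open circles the 20033 protein-coding genes. KCN genes lie above all genes in every H3K27me3 library, with 46 to 62 members marked, and below them in every H3K27ac library, with 4 to 23.

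Facts of the libraries touch these counts. Lists held 24871 to 111256 H3K27ac peaks, 23457 to 76441 H3K27me3 peaks and 87357 to 116210 H3K4me2 peaks, and the H3K27ac lists of hAFE were the shortest (42100 and 24871). Read depth is unknown, so an absent peak is not an absent mark. The hESC libraries of H3K27ac and H3K27me3 are labelled as re-analysed from an earlier deposit, so batch and stage cannot be told apart in contrasts of these marks with hESC. Millipore is named in the file names of H3K27me3 replicate 1 (hESC, hDE, hPFE), and its part in differences between replicates was not tested. Stage markers followed the labels in part: H3K27ac marked 6 of 6 pluripotency genes in hESC, then 3 in hDE, 1 in hAFE and later 2 in hPFE, and 8 of 8 definitive endoderm genes in hDE but 0 in hESC and 1 each in hAFE and hPFE. Of 10 pharyngeal foregut genes it marked 0, 0, 2 and 4. Of 9 neural genes, H3K27me3 marked 9 at every stage and H3K27ac 0 except 1 in hDE, and of 8 genes of mesoderm, heart and blood, H3K27me3 marked 5, 6, 6 and 6 and H3K27ac 2, 2, 0 and 2.

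The classes differed in how many members carried H3K27me3. The pore-forming subunits carried it most. Voltage-gated channels, which open when the membrane depolarises, had 28 of 40 members marked in hESC, then 25 in hDE, 29 in hAFE and 30 in hPFE. Two-pore leak channels, which pass a background current, had 11, 9, 13 and 11 of 15. Inward rectifiers, which pass current best near the resting potential, had 8, 5, 7 and 6 of 16, and calcium- or sodium-activated channels 4, 3, 5 and 5 of 8. Accessory genes, among them the KCNE, KCNIP, KCNAB and KCNMB subunits, had 3, 2, 4 and 3 of 17, which is near the share of all genes. Members of a class were counted with 1 call each, and some neighbours share peaks: KCNK16 and KCNK17 lie 0.151 kb apart on chromosome 6 and carried the same calls at all 4 stages.

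**Figure D2:**
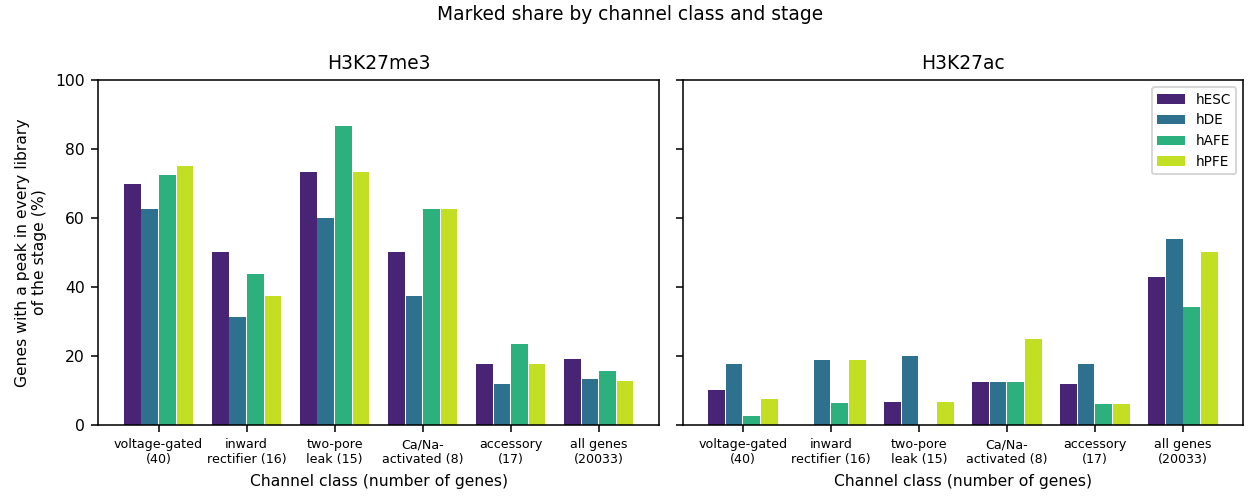
Percent of genes marked in every library of a stage (y axis) by channel class (x axis, number of genes in brackets) for H3K27me3 on the left and H3K27ac on the right, with bars for hESC, hDE, hAFE and hPFE. H3K27me3 bars of voltage-gated and two-pore channels stand highest (28 of 40 and 11 of 15 in hESC), accessory genes stand near all genes, and every class stands below all genes in H3K27ac.

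Every member marked by H3K27me3 in hESC also carried H3K4me2 there, so 54 of the 96 members were bivalent in hESC (56.2%), against a background of 18.5%. In all 54 both marks had peaks at one and the same gene end, as in 98.3% of all bivalent genes. These are bulk cell preparations, so both marks may come from different cells, and fewer marked cells cannot be told apart from less of a mark per cell. In hESC the H3K27me3 libraries are labelled as re-analysed and the H3K4me2 libraries are not. The marks called bivalent may therefore also stem from different cell preparations. H3K27me3 peaks were mostly at transcription starts: of the members with a known strand and a peak, 90 to 97.4% had it at the start in each library.

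The 10 bivalent members with the strongest H3K27me3 peaks in hESC, ranked by the place of the peak within its own list, were all pore-forming subunits. KCNK4, a mechanosensitive two-pore channel at 64291302 to 64300031 on chromosome 11, ranked first, with fold enrichment of 16.1 and 22.2 in hESC replicates 1 and 2. Its H3K27me3 peaks then reached 8.25 and 14.3 in hDE, 9.8 in hAFE, and 6.55 and 8.17 in hPFE, and peaks covered 89.7% of the gene or more in every library. KCNK4 was thus covered along its body and not at its start alone, with the ends of other genes, GPR137 and CATSPERZ, close by. KCNH3, a voltage-gated channel of the EAG family, had 12.3 and 14.9. KCNK9, an acid-sensitive leak channel, had 13.8 and 14.3. KCNA1, a neuronal channel of the Kv1 group, had 12.6 and 13.7, and KCNA3, the Kv1 channel of T lymphocytes, had 9.79 and 15.9. KCNK10 (10.4 and 12.4), KCNJ5 (8.47 and 16.9), KCNC1 (7.38 and 15.0), KCNK3 (8.69 and 11.4) and KCNA4 (8.71 and 15.4) completed the 10. Of these 10, all but KCNJ5 kept H3K27me3 in every library of every stage. KCNJ5 had no peak in hDE replicate 1. The members' H3K27me3 peaks also stood high within their lists, with median percentiles of 86.2 to 95.4 over the 7 libraries against 78.1 to 91.7 for all marked genes, and median widths of 758.0 to 1690.0 bp against 402.0 to 902.0 bp.

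Most bivalent members kept H3K27me3 through differentiation, and more often than bivalent genes in general. Of the 54, 42 kept it in hDE (77.8%), 49 in hAFE (90.7%) and 46 in hPFE (85.2%). Of all 3709 bivalent genes, 63.4%, 66.9% and 56.2% kept it. Members' H3K27me3 peaks in hESC stood higher in their lists, with median percentiles of 87.4 and 94.5 against 78.1 and 86.5 for all genes with a peak. The part of peak strength in keeping the mark was not tested. Over the series, 36 members carried H3K27me3 at all 4 stages (37.5%, background 9.07%), and 32 carried both H3K4me2 and H3K27me3 at all 4 (33.3%, against 6.88% of all genes). With a −log10 p of 5 or more the second count was 19. Among the 36 were KCNQ1, the pore of the slow delayed rectifier of heart and epithelia, KCNMA1, the pore of the large-conductance calcium-activated channel, and KCNJ10, the inward rectifier of glia. KCNJ12 carried it in every library while KCNJ18 had no peak of any mark, but their sequences are nearly identical and reads could be placed at either, so both calls are uncertain.

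**Figure D3:**
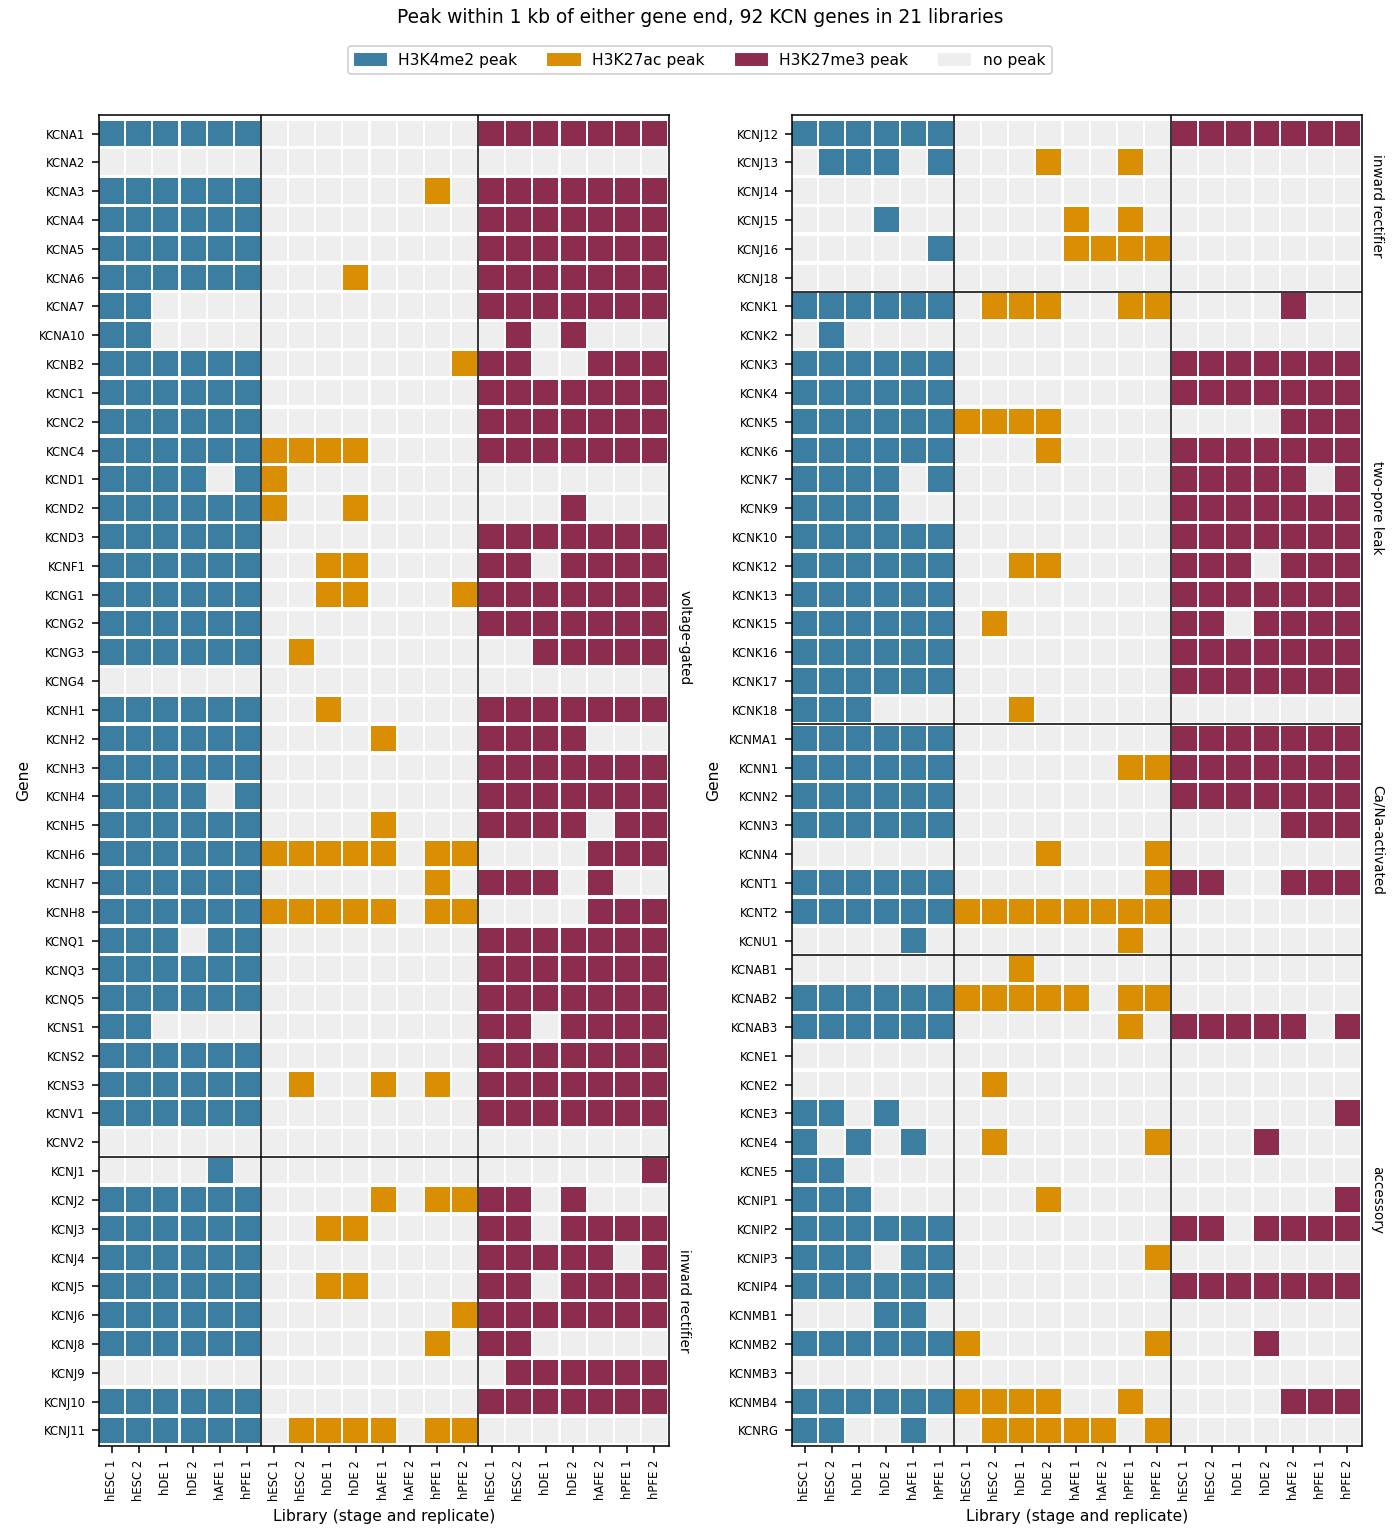
Presence (coloured) or absence (grey) of a peak within 1 kb of either end for 92 KCN genes (rows, grouped by class) in the 21 libraries (columns, by mark, stage and replicate). H3K27me3 is present at every stage in 36 rows, whereas H3K27ac is sparse, and KCNT2 carries it in all 8 libraries.

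Losses of H3K27me3 were few under the rule used. From hESC to hDE, 3 of 54 members lost it, against a background of 22.2%: KCNB2, KCNJ8 and KCNT1. From hESC to hPFE, 4 of 54 lost it, KCNH2, KCNH7, KCNJ2 and KCNJ8, against 32.4%. From hDE to hPFE, KCNH2 alone of 44 lost it, against 16.3%. The first count rested on hDE replicate 2, without which it was 10, adding KCNF1, KCNIP2, KCNJ2, KCNJ3, KCNJ5, KCNK15 and KCNS1, and without hDE replicate 1 it was 5. It also rose to 10 of 52 with a −log10 p of 5 or more and to 9 of 53 with lists of equal length. No background is given for this contrast at those settings, so the low share of losses in hDE is not firm. The second count was 8 without hPFE replicate 2, and the third was 6 without hDE replicate 1, 2 without hDE replicate 2 and 5 without hPFE replicate 2. Under the 5 other settings tried, 5.36 to 13.2% of members lost it from hESC to hPFE, against 28.9 to 36.3% of all genes.

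KCNJ8, the pore of the ATP-sensitive channel of vascular smooth muscle (chromosome 12, 21764955 to 21774706), lost H3K27me3 outright. Its fold enrichment was 4.98 and 5.24 in hESC, with no peak in any of the 5 later H3K27me3 libraries, while H3K4me2 stayed in all 6 libraries. An H3K27ac peak of 3.94 appeared in hPFE replicate 1 only, so KCNJ8 did not count as acetylated. KCNJ8 is the one member that lost H3K27me3 in hDE and did not regain it in hAFE or hPFE.

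KCNJ2, the inward rectifier that holds the resting potential of heart and skeletal muscle (chromosome 17, 70169532 to 70180044), went from H3K27me3 to H3K27ac. Its H3K27me3 peaks had 4.32 and 5.21 in hESC, none and 2.65 in hDE, and none in hAFE or hPFE. Its H3K27ac peaks were absent from hESC and hDE, then had 5.88 and none in hAFE, and 5.94 and 4.45 in hPFE. The strongest H3K27ac peaks in hPFE (70168386 to 70169340 and 70168704 to 70169212) lay before the start. The strongest H3K27me3 peaks in hESC (70169799 to 70170163 and 70170134 to 70171083) lay after it. A long non-coding RNA gene, KCNJ2-AS1, has an end close to one end of KCNJ2. Whether the H3K27ac belongs to that neighbour was not tested. KCNJ2 is the one member that lost H3K27me3 and gained H3K27ac between hESC and hPFE, out of 3 that gained H3K27ac, and 27.1% of all genes that gained H3K27ac did the same.

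KCNH2, which encodes the rapid delayed rectifier of heart (hERG, chromosome 7, 150944961 to 150978321), kept H3K27me3 longer. Its peaks had 3.49 and 5.72 in hESC, 5.65 and 7.68 in hDE, and none at the gene ends in hAFE or hPFE. An H3K27ac peak of 5.84 stood at its start in hAFE replicate 1 only. Within KCNH2, an internal start at 150960056, which lies 15.1 kb from the nearer end, carried H3K27me3 in hDE and in the hAFE library, so the gene was not without the mark in hAFE. With windows of 2.5 kb KCNH2 did not count as lost.

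KCNH7, a channel of the same family found in neurons, had H3K27me3 peaks of 5.4 and 6.74 in hESC, 3.24 and none in hDE, 2.81 in hAFE and none in hPFE. With windows of 2.5 kb KCNH7 did not count as lost. At the gene ends KCNB2 and KCNT1 lost the mark in hDE and then had it again, but neither loss held under all settings. KCNB2, a delayed rectifier of neurons, had 6.01 and 4.7 in hESC, no peak in hDE, 4.48 in hAFE, and 6.65 and 7.71 in hPFE. With windows of 2.5 kb KCNB2 was marked in both hDE libraries, so that neither the loss nor the later gain counted, and with an overlap of 200 bp it was not marked in hESC. KCNT1, a sodium-activated channel, had 3.33 and 4.29 in hESC, none in hDE, 3.97 in hAFE, and 2.4 and 2.68 in hPFE. The −log10 p of KCNT1 was 3.62 and 6.88 in hESC, 5.06 in hAFE, and 2.67 and 2.98 in hPFE, and it did not count as lost when peaks needed a −log10 p of 5 or more or an overlap of 200 bp.

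Gains of H3K27me3 were more frequent among the KCN genes than among all genes. From hESC to hPFE, 8 of 40 members gained it, among them KCNG3, KCNH6, KCNH8, KCNK5, KCNMB4 and KCNN3, against a background of 1.55%. From hDE to hPFE, 8 of 38 gained it, among them KCNB2, KCNH6, KCNH8, KCNK5, KCNMB4, KCNN3 and KCNT1, against 2.05%. From hESC to hDE, KCNG3 alone of 40 gained it, against 0.868%. Without hDE replicate 2 the hDE to hPFE count was 15, and the hESC to hDE count was 5 without hDE replicate 1 and 2 without hESC replicate 2. Under the 5 other settings the share that gained from hESC to hPFE ran from 9.3 to 16.7% of members, against 0.993 to 2.92% of all genes. Contrasts with hAFE rest on 1 H3K27me3 library there. Between hDE and hAFE, 9 of 38 members gained the mark, against 2.73%, and 3 of 44 lost it (KCNH2 and KCNH5 among them), against 15.3%. Without hDE replicate 2 those gains were 15, and without hDE replicate 1 those losses were 9. Since hESC, 8 of 40 had gained it in hAFE, against 2.13%, and 5 of 54 had lost it (KCNH2, KCNH5, KCNJ2 and KCNJ8 among them), against 33.5%. Between hAFE and hPFE, 2 of 38 gained it, KCNH5 among them, against 1.78%, and KCNH7 and KCNK1 of 58 lost it, against 16.1%. Those gains were 6 without hPFE replicate 1 and those losses 5 without hPFE replicate 2, and with windows of 2.5 kb neither KCNH7 nor KCNK1 counted as lost. These contrasts share their hESC, hDE or hPFE libraries, so their gene lists are not separate evidence.

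KCNG3, a subunit that forms no channel alone and modifies Kv2 channels, had no H3K27me3 peak in hESC, then 4.01 and 6.05 in hDE, 11.8 in hAFE, and 5.96 and 8.17 in hPFE. Its peaks had the highest places in the hPFE lists of the 8 genes that gained the mark since hESC. KCNN3, a small-conductance calcium-activated channel, had none in hESC or hDE, 4.28 in hAFE and 2.67 and 3.23 in hPFE. KCNMB4, the neuronal beta subunit of the large-conductance channel, had 3.97 in hAFE and 4.92 and 3.19 in hPFE. Many of these peaks were weak, and 4 of the 8 from hESC to hPFE (KCNH6, KCNK5 and KCNN3 among them) no longer counted when peaks needed a −log10 p of 5 or more. KCNH6, KCNK5, KCNMB4 and KCNN3 did not count with an overlap of 200 bp, nor KCNMB4 with windows of 2.5 kb.

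KCNH6 and KCNH8, 2 further EAG family channels, were marked by both H3K27me3 and H3K27ac in hPFE. KCNH8 (chromosome 3, 19148510 to 19535642) had H3K27ac at its start with 6.14 and 7.08 in hESC, 9.35 and 14.4 in hDE, 6.08 and none in hAFE, and 5.97 and 3.93 in hPFE. Its H3K27me3 appeared within 1 kb of the same start with 3.85 in hAFE and 3.78 and 3.91 in hPFE. The strongest H3K27ac peaks of KCNH8 in hPFE (19147153 to 19147973 and 19147076 to 19147538) lay before the start. The strongest H3K27me3 peaks there (19148968 to 19149449 and 19148565 to 19149362) lay after it. At KCNH6 the marks stood at different ends: H3K27me3 was at the start, with 3.46 in hAFE and 3.2 and 4.02 in hPFE, while H3K27ac was at the other end, with 5.62 and 3.45 in hESC and 5.29 and 4.64 in hPFE, where the gene DCAF7 has an end close by. The H3K27ac of KCNH6 may therefore be that of its neighbour, which was not tested.

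H3K27ac was gained by few members and lost by many of those that had it. From hESC to hDE, 5 of 75 members gained it, KCNF1, KCNG1, KCNJ3, KCNJ5 and KCNK12, against a background of 14.6%, and 0 of 8 lost it, against 2.76%. From hDE to hAFE, 10 of the 17 members that had it lost it, against 12.5%, and KCNJ16 alone of 70 gained it, against 1.17%. All 5 genes that had gained it in hDE were among the 10 that lost it (both contrasts use the hDE libraries), as were KCNC4, KCNK1, KCNK5 and KCNMB4. From hAFE to hPFE, KCNK1 and KCNN1 of 83 gained it, against 7.7%, and 0 of 4 lost it, against 0.539%.

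The loss in hAFE coincided with the shortest H3K27ac lists, and the part of list length in it was examined with lists cut to the same number of peaks. Then 4 of 8 members lost H3K27ac from hDE to hAFE (50%), against 6.89% of all genes. Under the other 4 settings 52.0 to 60% of members lost it, against 11 to 15.7%. Without hDE replicate 1 the count was 16. Members with an H3K27ac peak in hDE had weaker peaks there, with median percentiles of 64.1 and 71.9 against 87.1 and 88.8 for all genes with a peak. The part of peak strength in the loss was not tested. The gain count in hDE was 9 without hESC replicate 2, 10 without hDE replicate 1 and 8 without hDE replicate 2, and the losses from hESC to hDE were 5 and 3 without hESC replicate 1 and replicate 2. From hDE to hAFE the gains were 6 without hAFE replicate 2. From hAFE to hPFE the gains were 7 without hAFE replicate 1 and 10 and 9 without hPFE replicates 1 and 2, and the losses were 2 without hAFE replicate 2 and 1 without hPFE replicate 2.

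Of the 5 genes that gained H3K27ac in hDE, KCNF1, KCNG1 and KCNK12 had the strongest peaks there. KCNF1, a subunit that modifies Kv2 channels and forms no channel alone (chromosome 2, 10911934 to 10914225), had H3K27ac of 12.7 and 6.54 in hDE and no peak at any other stage. Its H3K27me3 ran the other way, with 8.1 and 7.96 in hESC, none and 3.25 in hDE, 7.59 in hAFE, and 2.82 and 4.69 in hPFE. KCNK12, a leak channel subunit (chromosome 2, 47509290 to 47570985), had H3K27ac peaks of 13.2 and 11.5 in hDE that were 2856 and 2344 bp wide, and none elsewhere. Its H3K27me3 had 5.68 and 7.8 in hESC, 2.75 and none in hDE, 7.51 in hAFE, and 4.1 and 9.04 in hPFE. Both genes thus had H3K27me3 in every library of hESC, hAFE and hPFE, and H3K27ac in hDE alone.

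KCNG1, another Kv2 modifier, had H3K27ac of 10.5 and 9.18 in hDE with widths of 2942 and 3395 bp, none in hESC or hAFE, and 3.2 in hPFE replicate 2 only. It had H3K27me3 peaks in every library, with 4.41 and 10.3 in hESC, 3.16 and 4.31 in hDE, 7.51 in hAFE, and 3.94 and 4.61 in hPFE. In hDE replicate 1 that peak had a −log10 p of 4.79, and H3K27me3 covered 1.75% of the windows at the gene ends. With a −log10 p of 5 or more KCNG1 therefore had no H3K27me3 peak in that library. Under the rule used, KCNG1 and KCNC4 were the members with H3K4me2, H3K27ac and H3K27me3 at once in hDE. KCNJ3 and KCNJ5, which together form the acetylcholine-gated channel of the heart atrium, had weaker H3K27ac in hDE. KCNJ3 had 2.43 and 2.54, and KCNJ5 had 3.69 and 3.03. Neither counted when peaks needed a −log10 p of 5 or more. Both had H3K27me3 in hESC (4.37 and 11.2 at KCNJ3, 8.47 and 16.9 at KCNJ5), no H3K27me3 peak in hDE replicate 1, and peaks of 2.76 and 4.44 in hDE replicate 2.

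**Figure D4:**
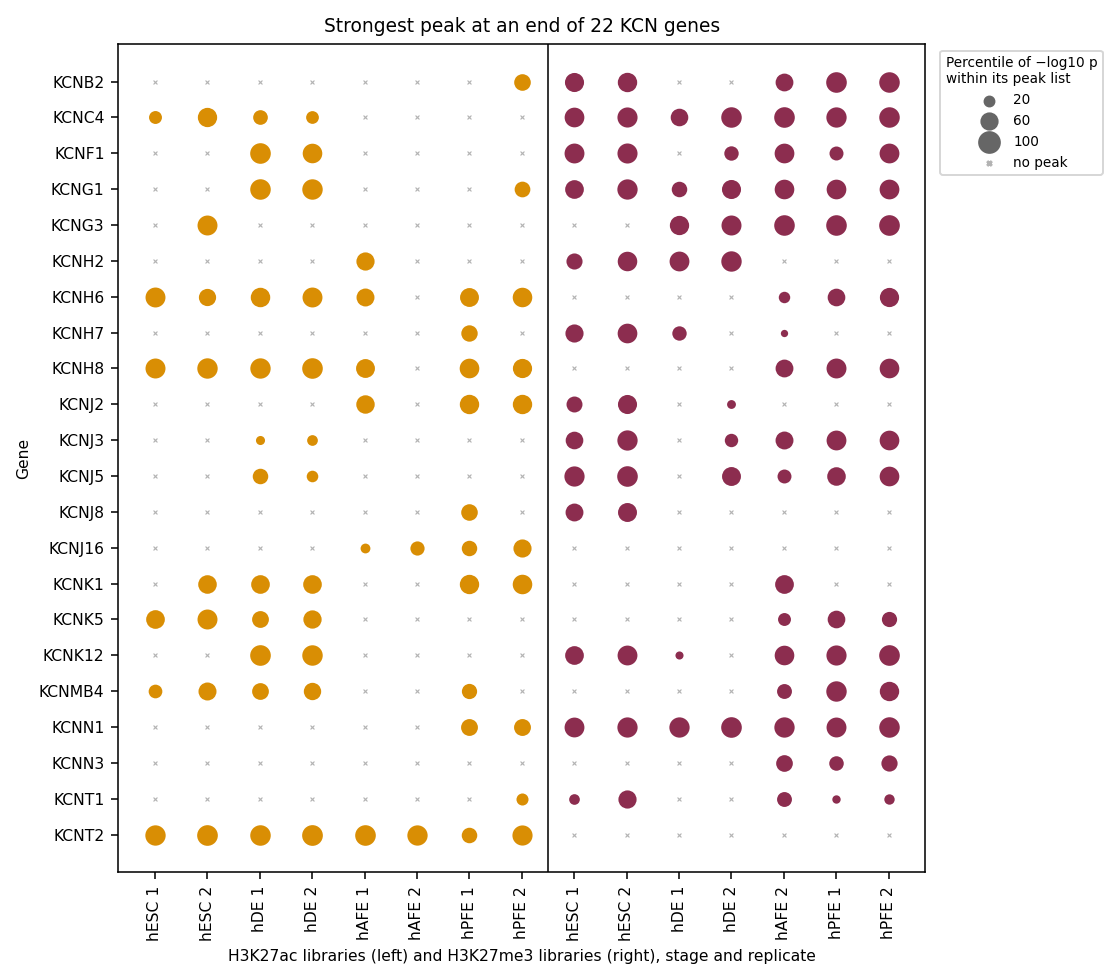
Strongest peak at an end of 22 KCN genes named by the rule for changes and constant H3K27ac (rows) in the 8 H3K27ac libraries (left) and the 7 H3K27me3 libraries (right); dot size is the percentile of the peak's −log10 p within its own list and crosses mark no peak. KCNF1 and KCNK12 show H3K27ac in the hDE libraries alone, KCNJ16 shows it only in hAFE and hPFE, and KCNK5 has H3K27ac in hESC and hDE and H3K27me3 afterwards.

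KCNK1 and KCNK5, 2 leak channels of epithelia, and KCNMB4 lost H3K27ac and gained H3K27me3 from hDE to hAFE. In all, 4 of the 10 members that lost H3K27ac did so, and 11.1% of all genes that lost it gained H3K27me3, in a contrast with 1 hAFE library of H3K27me3. KCNK5, an alkali-sensitive channel (chromosome 6, 39188971 to 39229475), had H3K27ac of 4.36 and 5.72 in hESC and 4.16 and 5.26 in hDE and none later. Its H3K27me3 was absent from hESC and hDE and had 3.49 in hAFE and 3.2 and 2.9 in hPFE. These H3K27me3 peaks were weak, and the separation of earlier from later stages follows from the rule by which KCNK5 was named. With lists of equal length neither KCNK5 nor KCNMB4 counted as losing H3K27ac from hDE to hAFE. KCNK1 had H3K27ac of 4.41 in hESC replicate 2, 5.27 and 5.34 in hDE, none in hAFE, and 6.1 and 4.79 in hPFE, with an H3K27me3 peak of 5.95 in the hAFE library only.

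From hESC to hPFE, 3 of 75 members gained H3K27ac, KCNJ16, KCNJ2 and KCNN1, against a background of 11.4%, and 2 of 8 lost it, KCNC4 and KCNK5, against 3.81%. Between hESC and hAFE, KCNJ16 alone of 75 gained it, against 3.05%, and 3 of 8 lost it, KCNC4, KCNK5 and KCNMB4, against 7.12%. From hDE to hPFE the same 3 gained it, of 70, against 4.85%, and 7 of 17 lost it, against 5.87%. These gains from hDE were 9 and 10 without hPFE replicates 1 and 2, and these losses were 11 without hDE replicate 1. From hESC to hAFE the gains were 2 without hESC replicate 2 and 5 without hAFE replicate 2, and the losses were 9 and 7 without hESC replicates 1 and 2 and 6 without hAFE replicate 1. KCNC4 counted as lost in none of these contrasts with a −log10 p of 5 or more or with lists of equal length. The hESC to hPFE gains were 5 without hESC replicate 2, 9 without hPFE replicate 1 and 10 without hPFE replicate 2, and the losses were 6 and 5 without hESC replicates 1 and 2.

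KCNJ16, an inward rectifier subunit of kidney and other epithelia that pairs with KCNJ10 (chromosome 17, 70075225 to 70135608), had no H3K27ac peak in hESC or hDE, then 3.13 and 3.47 in hAFE and 3.6 and 3.58 in hPFE, all at its start. A long non-coding RNA gene, LOC105371881, has an end close to one end of KCNJ16, and its part in these peaks was not tested. KCNJ16 was the one member to gain H3K27ac between hDE and hAFE and to keep it in hPFE. It had no H3K27me3 peak in any library, and H3K4me2 in the hPFE library alone. Its peaks were weak, with −log10 p from 3.69 to 5.84, and it did not count at −log10 p of 5 or more or with lists of the same length. KCNJ16 and KCNJ2 lie 33.9 kb apart, and both had H3K27ac in both hPFE libraries, from unlike starting points: KCNJ2 was bivalent with 39 CpG in its window, and KCNJ16 carried no mark in hESC with 4. KCNN1, a small-conductance calcium-activated channel, gained H3K27ac in hPFE (3.66 and 3.37) while it kept H3K27me3 in all 7 libraries. Its gain did not count with lists of equal length, nor from hESC with windows of 2.5 kb.

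Steady H3K27ac was rare. Only 2 members carried it in every library of all 4 stages (2.08%, background 30.3%), KCNT2 among them, and without hAFE replicate 2 the count was 5. With lists of equal length KCNT2 did not count in hPFE. KCNT2, a sodium-activated channel (chromosome 1, 196225779 to 196608440), had 6.52 and 9.08 in hESC, 10.7 and 16.4 in hDE, 12.7 and 7.42 in hAFE, and 3.06 and 6.27 in hPFE, always at its start. KCNH6, KCNH8 and KCNAB2 carried H3K27ac in every library but hAFE replicate 2. CHD5 and NPHP4 have ends close to those of KCNAB2, and their part in its H3K27ac was not tested. KCNT2 had no H3K27me3 peak in any library. KCNC4, a pore subunit of the Kv3 group, had all 3 marks in hESC (H3K27ac of 3.14 and 4.9, H3K27me3 of 7.88 and 9.5). It kept H3K27me3 throughout and had no H3K27ac after hDE. A long non-coding RNA gene, KCNC4-DT, has an end close to one end of KCNC4, and its part in that H3K27ac was not tested. The H3K27ac peaks of members stood low in their lists, with median percentiles of 58.6 to 74.3 against 73.3 to 92.4 for all marked genes. No library had an H3K27ac peak at the ends of 47 members (49.0%, background 29.9%). Among these, KCNN2 carried H3K27ac in hESC and hDE at an internal start at 114362070 on chromosome 5, so this too is a count at gene ends.

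No peak of any mark in any library stood at the ends of 7 members (7.29%, background 12.8%): KCNA2, KCNE1, KCNG4, KCNJ14, KCNJ18, KCNMB3 and KCNV2. KCNE1, the small subunit that slows KCNQ1, is among them while KCNQ1 itself carried H3K27me3 throughout. For KCNA2, a neuronal Kv1 channel, the gene ends missed the mark: an internal start at 110606358 on chromosome 1, which lies 12.8 kb inside the gene, carried H3K4me2 and H3K27me3 at all 4 stages. KCNK2, a mechanosensitive leak channel counted as unmarked for H3K27me3, likewise had both marks at all 4 stages at an internal start at 215082737 on chromosome 1, 77.2 kb inside. In all, 21 members had 36 further starts inside the gene in the promoter table, and 6 of them (KCNA2, KCNAB1, KCNIP1, KCNIP3, KCNK2 and KCNMB3) carried H3K27me3 in hESC at such a start and at neither end. The count of 54 is therefore a count at gene ends.

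H3K4me2 changed at few members. From hESC to hDE, 5 of 76 lost it, KCNA10, KCNA7, KCNE5, KCNRG and KCNS1, against a background of 2.82%, and 0 of 16 gained it, against 1.87%. Without hDE replicate 1 the losses were 9, and the gains were 2 without either that library or hESC replicate 2. KCNA7, a Kv1 channel of muscle, had H3K4me2 peaks at its ends in both hESC libraries and in no later one, while H3K27me3 stayed in all 7. KCNA10 likewise had H3K4me2 in both hESC libraries and none later. Neither counted as lost with a −log10 p of 5 or more, windows of 2.5 kb, the transcription start alone or an overlap of 200 bp.

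Within the gene bodies, H3K27ac regions shared by both libraries of a stage numbered 42 in 15 members in hESC, 109 in 29 members in hDE, 23 in 10 in hAFE and 36 in 13 in hPFE. These members were 15.6, 30.2, 10.4 and 13.5% of the KCN genes, against 17.2, 28.4, 11.1 and 20.6% of all genes. The share with a region was thus near the background except in hPFE, where it was lower. Regions per Mb of gene numbered 3.56, 9.25, 1.95 and 3.05, against 7.6, 17.7, 4.04 and 9.77 over all protein-coding genes. Both were highest in hDE. KCNH8 held 15 such regions in hDE, and KCNK12 held 11 within 61.7 kb and KCNG1 5 within 19.5 kb, the same genes that had strong H3K27ac at an end there. KCNQ1 held 8 in hPFE and 5 in hDE, without H3K27ac at its ends. KCND2, a channel of the fast transient current of heart and neurons, held 9 in hESC and 8 in hDE.

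Other channel genes, from lists chosen by name, carried the same state in varying numbers. Of 9 partners of potassium channels named outside KCN, 7 were bivalent in hESC, among them ABCC8 and ABCC9, the regulatory subunits of ATP-sensitive channels. Of 13 voltage-gated sodium channel genes 6 were bivalent, of 10 calcium channel pore genes 3, and of 4 genes for hyperpolarization-activated channels 2. The background over all protein-coding genes was 18.5%. From hESC to hPFE, H3K27me3 was lost by 1 of 7 partners (AMIGO1), 2 of 6 sodium channel genes (SCN3B and SCN8A), 1 of 4 calcium channel genes (CACNA1D) and 0 of 2 hyperpolarization-activated channel genes. The background of that loss was 32.4%, and these lists are too short to be set apart from it. H3K27me3 was gained by CACNA1A alone among those 4 lists, against a background of 1.55%.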

How the data were processed

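Peaks of H3K4me2, H3K27ac and H3K27me3 in 21 libraries of H1 cells and their derivatives were deposited as 1 list per library. Per the labels' protocols, chromatin was cross-linked and sonicated. Coordinates are those of hg38, per the submitters' processing notes. Which aligner and which peak caller made the lists is not given in the sources used here. Per the deposited file names, the authors removed duplicates and called each library against its stage's input, at a p threshold of 0.01 with a cap of 500 K peaks. Each deposited peak has a score, which was not used, a fold enrichment (a ratio of signal to control), and p and q on a −log10 scale, as computed by the authors. The lowest deposited −log10 p was 2.00.

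Overlapping peaks of a library were merged with Python 3.11.15, pandas 2.3.3 and numpy 2.4.6, and genes, starts and promoters came from RefSeq tables of GRCh38.p14. The gene table gives no strand, so both annotated ends were used, each with 1 kb on either side and at least 1 bp of overlap. Strand and start were known for 72 of the 96 members. Counting was checked on simulated peaks. Read depth is unknown, and whether replicates came from separate cultures is not stated in the labels. Replicates are libraries, at most 2 of a mark per stage, and no p-value was computed. The members and gene lists were chosen with earlier results of these data known. Genes named are all members that gained or lost H3K27me3 or H3K27ac between stages with 2 libraries each, the 10 bivalent members with the highest H3K27me3 percentile in hESC, those with H3K27ac at all 4 stages and those with no peak, and further members named beside them were chosen after their values were seen. Some members that met this rule are counted but not reported by name here. Contrasts with H3K27me3 of hAFE rest on 1 library there. The 29 counts planned, and 16 added after seeing the data, were recomputed with a −log10 p minimum of 5, windows of 2.5 kb, the transcription start only, lists of equal length, an overlap of 200 bp and each replicate left out. Counts by class, of genes without a peak and of other channel genes were not.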

Additional observations from a re-analysis of the deposited data

How the results depend on the processing

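In all, 45 counts were recomputed (29 planned and 16 chosen after seeing the data), and a count was taken as unchanged when it stayed within 1.5 times its value. That held for 31 of 45 with a −log10 p of at least 5, 35 with windows of 2.5 kb, 30 with the transcription start alone (72 members tested, so counts fall by construction), 25 with lists of equal length, 40 with an overlap of 200 bp, and 108 of 154 recounts without 1 replicate. The cause of the other changes was not tested, beyond the fewer peaks, genes or libraries each setting leaves.

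With −log10 p of 5 or more, members with H3K27ac numbered 5 in hESC and 2 in hAFE. H3K27me3 was gained by 2 and lost by 10 from hESC to hDE, lost by 3 from hDE to hPFE and gained by 4 from hESC to hPFE, and H3K27ac was gained by 0 from hDE to hAFE and lost by 1 from hESC to hPFE. With 2.5 kb windows, H3K27ac stood at 9 members in hAFE and 19 in hPFE, 5 gained H3K27me3 from hESC to hPFE, 2 lost H3K27ac from hESC to hDE, 6 gained it from hAFE to hPFE and 7 from hESC to hPFE. At the transcription start alone, the counts were 5 in hESC and 10 in hDE for H3K27ac, 29 in hDE and 38 in hAFE for H3K27me3, 45 in hDE for H3K4me2 and 35 bivalent in hESC. There, 5 gained H3K27me3 from hESC to hPFE, 3 gained H3K27ac from hESC to hDE, 6 lost it from hDE to hAFE and 3 lost H3K4me2 from hESC to hDE. With lists of equal length, H3K27ac stood at 5 members in hESC, 8 in hDE and 2 in hAFE. H3K27me3 was gained by 2 and lost by 9 from hESC to hDE, lost by 3 from hDE to hPFE and lost by 7 from hESC to hPFE. H3K27ac was gained by 3 and lost by 1 from hESC to hDE, gained by 0 and lost by 4 from hDE to hAFE, gained by 1 from hAFE to hPFE, and gained by 1 and lost by 1 from hESC to hPFE. With an overlap of 200 bp, 3 lost H3K27me3 from hDE to hPFE and 4 gained it from hESC to hPFE.

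Among the 16 added counts, with −log10 p of 5 or more H3K27ac was gained by 0 and lost by 1 from hESC to hAFE. H3K27me3 was lost by 6 from hDE to hAFE, gained by 5 from hAFE to hPFE and lost by 11 from hESC to hAFE, and 19 carried H3K4me2 and H3K27me3 at all 4 stages. With 2.5 kb windows, 6 gained H3K27ac from hDE to hPFE, 5 lost it from hESC to hAFE, 5 gained H3K27me3 from hESC to hAFE, and 6 had H3K27ac at all 4 stages. At the transcription start alone, H3K27me3 was gained by 1 and lost by 1 from hAFE to hPFE, 1 had H3K27ac at all 4 stages, and 27 and 31 bivalent members kept H3K27me3 in hDE and hAFE. With lists of equal length, 3 lost H3K27ac from hDE to hPFE, 0 gained and 1 lost it from hESC to hAFE, 15 gained H3K27me3 from hDE to hAFE, 5 lost it from hAFE to hPFE, and 1 had H3K27ac at all 4 stages. With an overlap of 200 bp, 2 gained H3K27ac from hESC to hAFE, and H3K27me3 was gained by 5 and lost by 4 from hAFE to hPFE.

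Without 1 replicate, counts can by construction only stay or rise, because each call needs all libraries of a stage to agree. Members with H3K27ac then ran from 12 to 17 in hESC, 4 to 13 in hAFE and 19 to 19 in hPFE. H3K27me3 gains ran from 1 to 5 (hESC to hDE) and 8 to 15 (hDE to hPFE), and losses from 3 to 10, 1 to 6 and 4 to 8 (hESC to hDE, hDE to hPFE, hESC to hPFE). H3K27ac gains ran from 5 to 10, 1 to 6, 2 to 10 and 3 to 10, and losses from 0 to 5, 10 to 16, 0 to 2 and 2 to 6 (hESC to hDE, hDE to hAFE, hAFE to hPFE, hESC to hPFE). H3K4me2 gains and losses from hESC to hDE ran from 0 to 2 and 5 to 9. For the added counts, H3K27ac gains ran from 3 to 10 and 1 to 5, and losses from 8 to 11 and 3 to 9 (hDE to hPFE, hESC to hAFE). H3K27me3 gains ran from 11 to 15 and 2 to 6, and losses from 3 to 9 and 2 to 5 (hDE to hAFE, hAFE to hPFE), and H3K27ac at all 4 stages from 2 to 5. No paired analysis was possible because these counts come from no test. Read depth is unknown, so weak peaks may be missed in any list.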
